A study of Mus musculus with 30 samples.

Results

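Immediate early genes are the transcripts that cells switch on first after a stimulus, and 9 of them were followed here together with Myc in mouse macrophage-like cells given interferon gamma (IFNG). The members were Fos, Jun, Junb, Egr1, Atf3, Dusp1, Ier2, Ier3, Zfp36 and Myc, chosen by name, and each matched 1 Ensembl gene of the 54146 in the count table. The libraries were bulk RNA-seq of J774A.1, an established macrophage-like line from a BALB/c mouse tumour. The study cut a single B2_Mm2 element, a short interspersed repeat in the first intron of Dicer1, out of both chromosome copies with CRISPR to make the clones KO1 and KO2, and grew WT1, WT2 and WT3 from single cells without electroporation. Each of these 5 clones was either left untreated or held in 100 ng/mL recombinant IFNG over 4 h, which makes 10 groups of 3 libraries and 30 libraries in all. A clone is thus the descent of a single cell, the KO clones alone passed through electroporation, and no source used here states that the 3 libraries of a clone came from separate cultures. P-values between treatments of a clone therefore measure the spread between these libraries, which may be technical, and 3 WT clones against 2 KO clones is the number behind any difference in genotype.

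Growth factors, stress and microbial products act through MAP kinases on factors already present in the cell, so immediate early genes need no new protein to be transcribed and their messages are short-lived. Several encode transcription factors: Fos, Jun and Junb are subunits of AP-1, a leucine zipper dimer, Atf3 is a related zipper protein best known as a stress-induced repressor, and Egr1 is a zinc finger factor. Others shut the signal off again: Dusp1 removes phosphate from MAP kinases, and Zfp36 (tristetraprolin) binds AU-rich stretches of mRNAs and speeds their decay. Myc, which dimerises with Max, drives genes of growth and ribosome production, and IFNG has long been linked to lower Myc in macrophages.

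Total counts per library ran from 15566122 to 37992642 with a median of 23682134, and every member had counts in all 30 libraries. The cells carried their labelled identity, and all 8 macrophage markers examined were detected in every library. Csf1r, the receptor for macrophage colony-stimulating factor, was at 967 to 1469 CPM (counts scaled to library size). Other macrophage markers were less even, Adgre1 at 9.27 to 294 CPM and Fcgr1 at 40.2 to 388 CPM over the 30 libraries. All 8 differed among the 5 untreated clones, as did 73.2% of all genes. In contrast, 8 markers of fibroblasts, epithelium, lymphocytes and endothelium summed to 0.331 to 1.75 CPM, with Krt8 at 0 throughout. Dicer1, which hosts the deleted element in an intron, stayed on in the KO clones: untreated means were 105, 128 and 123 CPM in WT1, WT2 and WT3 and 71.5 and 105 CPM in KO1 and KO2. After IFNG they were 136, 159 and 161 CPM in the WT clones and 75.0 and 99.6 CPM in the KO clones. The treatment took in every clone, since Gbp2b, an IFNG-induced GTPase, rose by 8.39 to 9.86 on the log2 scale and Irf1, an IFNG-induced transcription factor, by 4.97 to 5.33. The counts cover exons, so the intronic deletion itself cannot be seen in them. In bulk RNA a lower level cannot be divided into fewer expressing cells and less RNA per cell.

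For 7 of the 10 members a RefSeq window of 250 bases before to 50 bases after the gene start (build GRCm38.p6, mm10) was at hand: Fos, Jun, Junb, Atf3, Dusp1, Ier3 and Zfp36. Egr1, Ier2 and Myc had none. Both strands were searched for the AP-1 site TGANTCA and the CRE TGACGTCA with its shorter form TGACG. Bases 200 to 121 ahead of the Dusp1 start are shown because Dusp1 made the largest fall after IFNG and its window held the full CRE. They read 5′ to 3′ on the gene's own strand, and capitals mark these motifs.
Dusp1, chr17:26508593-26508672, minus strand: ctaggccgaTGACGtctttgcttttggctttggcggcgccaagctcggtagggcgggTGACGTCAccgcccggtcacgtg
The Dusp1 stretch holds a full CRE, found in 1.79% of 32851 mouse windows of this length, and a separate TGACG, a form found in 20.8% and also in the windows of Fos, Junb and Atf3. The AP-1 site, in 7.81% of all windows, was in none of the 7 member windows. These matches describe letters in a window, and binding was not measured here.

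The 3′ untranslated regions of the members were also read, from GENCODE vM21 transcripts on the same build, for the nonamer TTATTTATT to which Zfp36 binds. It occurred in 3 of the 10 members, Fos, Dusp1 and Zfp36 itself, against 8.12% of 11614 genes with such a region (943 genes). The 25 bases around the first nonamer in each are given, with the nonamer in capitals. Dusp1 holds 2 nonamers, and Fos and Zfp36 hold 1 each.
Fos, bases 647 to 671 of the 3′ untranslated region: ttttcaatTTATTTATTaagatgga
Dusp1, bases 95 to 119: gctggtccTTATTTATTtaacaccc
Zfp36, bases 581 to 605: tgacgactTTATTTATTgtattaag
The shorter pentamer ATTTA ran from 0 per kilobase in Ier2 to 8.16 per kilobase in Ier3, with a median of 1.30 over all genes. Fos lies at chr12:85473890-85477273, Dusp1 at chr17:26505590-26508519, Zfp36 at chr7:28376784-28380253 and Myc at chr15:61985391-61990374 (mm10), so Fos shares its chromosome with the edited Dicer1 locus.

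Levels of different genes were compared per length, as CPM divided by the gene's length in kilobases (FPKM). Untreated Dusp1 had clone means of 134, 49.99, 56.5, 66.2 and 86.9 FPKM in WT1, WT2, WT3, KO1 and KO2, the highest of the members in each clone except KO1. Atf3 was at 91.3, 43.6, 39.9, 80.1 and 73.1 FPKM in the same order, above Dusp1 in KO1 and just below Jun (40.5 FPKM) in WT3. Myc and Egr1 were lowest, with medians of 8.58 and 1.43 FPKM over 15 libraries. After 4 h of IFNG the medians of Atf3 (161 FPKM) and Zfp36 (160.3 FPKM, from 35.5) stood highest, while that of Dusp1 was 26.7 FPKM. The length used for Zfp36, 3470 bases, equals its whole span from start to end, any intron included. Its FPKM may therefore be too low, and its rank among the members before and after IFNG depends on this length. Untreated Junb was above Jun in WT1 (62.1 and 45.8 FPKM), KO1 and KO2 and below it in WT2 (27.01 and 33.8 FPKM) and WT3. After IFNG Junb was above Jun in 4 clones, and WT3 held 60.2 and 61.2 FPKM.

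**Figure D1:**
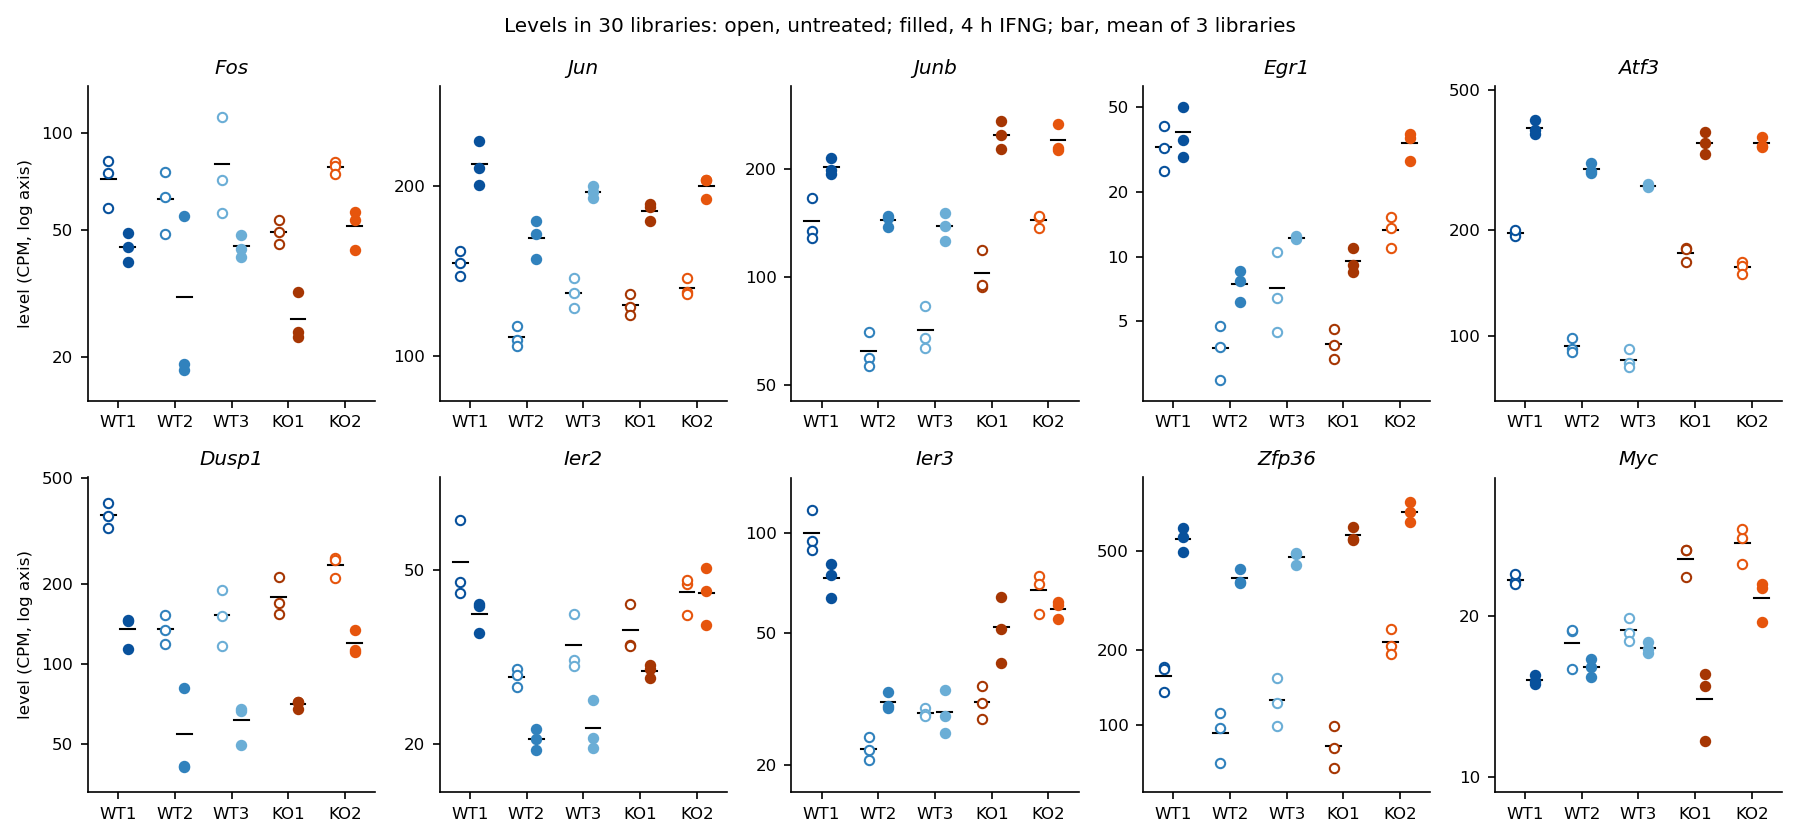
Level of each member in CPM on a log axis for the 5 clones, with open points for untreated and filled points for IFNG libraries and a bar at the mean of 3. Zfp36, Atf3, Jun and Junb lie higher after IFNG in every clone, Dusp1 and Fos lie lower on average, and WT1 sits above WT2 and WT3 for most members before treatment.

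IFNG for 4 h split the set: Zfp36, Atf3, Junb and Jun rose in all 5 clones, Dusp1 and Fos fell in all 5, and Egr1, Ier2, Ier3 and Myc passed in some clones and not in others. By edgeR's quasi-likelihood test with Benjamini-Hochberg adjustment over all genes, 9 members passed an adjusted p of 0.05 in WT1 (4 higher, 5 lower), where 21.2% of all tested genes did (11.8% higher, 9.47% lower). The same count was 9 in WT2 (6 higher, 3 lower) beside 34.5% of all genes (17.4% higher, 17% lower), and 8 in WT3 (5 higher, 3 lower) beside 36.1% (18.6% and 17.5%). In the KO clones it was 10 in KO1 (6 higher, 4 lower) beside 29.4% (16.2% and 13.2%) and 8 in KO2 (5 higher, 3 lower) beside 27.1% (13.9% and 13.2%). The members' median response ranged from -0.089 to 0.68 (log2) over the clones, whereas that of all tested genes stayed between -0.0083 and 0.0019. Of the genes tested in all 5 clones, 9.47% were higher in each and 7.04% lower in each, compared with 4 and 2 of the 10 members.

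**Figure D2:**
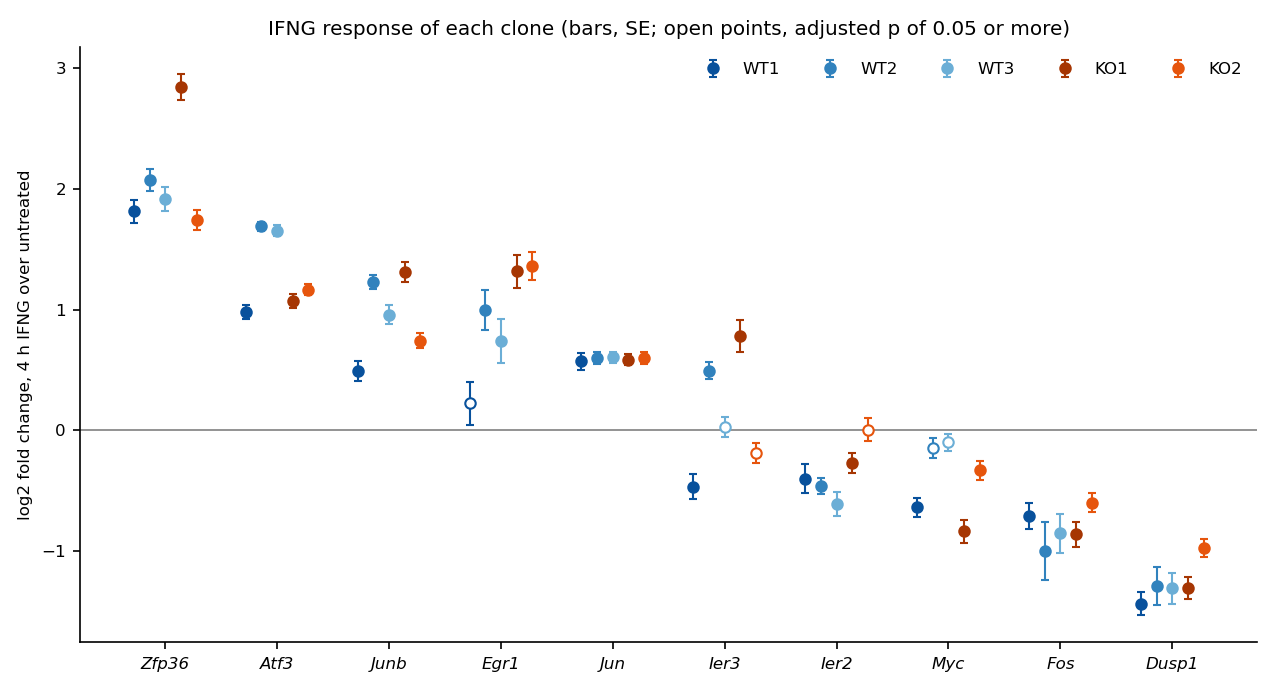
Log2 fold change of each member from untreated to 4 h IFNG in each clone, with bars for the SE and open points where the adjusted p was 0.05 or more. Zfp36 lies between 1.74 and 2.85, Dusp1 between -1.44 and -0.97, and the 5 points of Ier3 and of Myc are spread while those of Jun coincide.

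Among the AP-1 subunits, Fos fell while its partners Jun and Junb rose. Fos in untreated libraries was 81.7, 75.2 and 58.3 in WT1, 75.5, 63.4 and 48.3 in WT2, 112, 71.5 and 56.2 in WT3, 53.5, 49.3 and 45.2 in KO1 and 81.0, 78.9 and 74.5 in KO2 (CPM). After IFNG it was 44.1, 39.7 and 48.7 in WT1, 55.0, 18.3 and 19.1 in WT2, 48.3, 43.4 and 41.2 in WT3, 31.98, 23.2 and 23.99 in KO1 and 56.8, 53.5 and 43.3 in KO2 (CPM). The treated libraries lay below the untreated ones in 4 clones, and in WT2 the ranges overlapped, because 1 treated library (55.0 CPM) stood well above the other two. The log2FC was -0.71 in WT1 (SE 0.11), -0.999 in WT2 (SE 0.24), -0.85 in WT3 (SE 0.16), -0.86 in KO1 (SE 0.10) and -0.60 in KO2 (SE 0.079), and the largest adjusted p by edgeR was 0.00261. Without that single WT2 library the WT2 change was -1.73 instead of -0.999, and DESeq2 on all libraries gave WT2 an adjusted p of 0.189. Fos is the usual dimer partner that Jun proteins need for strong DNA binding.

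Jun, the founding AP-1 subunit, had the most even response of the set. Over the 15 untreated libraries it ran from 104 to 153 CPM (median 129), and over the 15 treated ones from 148 to 241 CPM (median 191). Within each clone the treated libraries lay above the untreated ones. Its log2FC was 0.57 in WT1 (SE 0.072), 0.60 in WT2 (SE 0.049), 0.61 in WT3 (SE 0.046), 0.59 in KO1 (SE 0.049) and 0.60 in KO2 (SE 0.049), a rise of 1.49- to 1.52-fold, and the clones differed by no more than 0.0342 on the log2 scale.

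Junb, a subunit that activates some AP-1 sites and restrains Jun at others, moved further and less evenly. Untreated it was 166, 135 and 128 in WT1, 70.2, 59.7 and 56.5 in WT2, 83.0, 67.8 and 63.6 in WT3, 119, 93.7 and 94.8 in KO1 and 147, 148 and 137 in KO2 (CPM). With IFNG it was 214, 199 and 194 in WT1, 148, 138 and 146 in WT2, 150.4, 139 and 126 in WT3, 227, 248 and 272 in KO1 and 267, 229 and 226 in KO2 (CPM). All treated libraries exceeded the untreated ones of their clone, and WT1, which began highest among the WT clones, gained least. The log2FC was 0.49 in WT1 (SE 0.086), 1.23 in WT2 (SE 0.058), 0.96 in WT3 (SE 0.077), 1.31 in KO1 (SE 0.087) and 0.74 in KO2 (SE 0.062), with adjusted p (edgeR) no higher than 6.61e-04. The test for any difference in response among the 5 clones gave an adjusted p of 9.74e-04 for Junb (edgeR).

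Atf3 rose in every clone and had tight triplicates. Untreated libraries of WT1 held 196, 193 and 201 CPM, those of WT2 92.3, 90.3 and 98.8 CPM and those of WT3 83.9, 82.0 and 91.9 CPM, with KO1 at 178, 163 and 177 CPM and KO2 at 163, 159 and 151 CPM. Treated means were 391, 299, 268, 355 and 354 CPM in the same order. The clones with the lowest start, WT2 and WT3, made the largest rises, and the spread between clone means narrowed from 2.29-fold to 1.46-fold. The log2FC is taken against the untreated level, so a low start going with a large rise is partly built in. That limit also holds where start and response are set side by side for Junb, Ier3, Zfp36 and Myc. Egr1 began lowest in WT2, yet it rose less there (0.997) than in KO2 (1.36). The log2FC was 0.98 in WT1 (SE 0.060), 1.69 in WT2 (SE 0.041), 1.65 in WT3 (SE 0.045), 1.07 in KO1 (SE 0.059) and 1.17 in KO2 (SE 0.047), between 1.97- and 3.22-fold, and clones differed in it at an adjusted p of 9.85e-09 (edgeR).

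Egr1, a zinc finger factor that many mitogens induce, was low in most clones and responded unequally. Untreated levels were 40.9, 32.3 and 25.1 in WT1, 4.74, 3.79 and 2.64 in WT2, 10.5, 6.43 and 4.44 in WT3, 4.599, 3.32 and 3.85 in KO1 and 15.3, 13.6 and 10.99 in KO2 (CPM). Treated levels were 35.2, 29.3 and 50.4 in WT1, 7.67, 6.14 and 8.61 in WT2, 12.5, 12.2 and 12.1 in WT3, 9.17, 8.45 and 10.97 in KO1 and 36.1, 37.7 and 28.1 in KO2 (CPM). In WT1 the 2 sets overlapped, and in the other 4 clones every treated library was above every untreated one. The log2FC was 0.22 in WT1 (SE 0.18, adjusted p 0.466 by edgeR), 0.997 in WT2 (SE 0.17), 0.74 in WT3 (SE 0.18), 1.32 in KO1 (SE 0.14) and 1.36 in KO2 (SE 0.12). For WT3 the adjusted p was 0.00375 by edgeR and 0.0802 by DESeq2.

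Ier2 and Ier3 encode small immediate early proteins, Ier2 a nuclear protein and Ier3 a stress-induced one linked to cell survival. Ier2 in untreated libraries was 65.0, 47.0 and 44.2 in WT1, 29.7, 28.8 and 26.98 in WT2, 39.6, 31.2 and 30.2 in WT3, 41.9, 33.8 and 33.5 in KO1 and 46.5, 47.3 and 39.5 in KO2 (CPM). With IFNG it was 41.7, 35.9 and 41.4 in WT1, 21.7, 19.4 and 20.5 in WT2, 25.3, 20.6 and 19.6 in WT3, 29.6, 28.3 and 30.3 in KO1 and 50.6, 44.8 and 37.5 in KO2 (CPM). Treated libraries lay below untreated ones in 4 clones and overlapped them in KO2. Ier2 fell in the WT clones (log2FC -0.40, -0.46 and -0.61) and in KO1 (-0.27, adjusted p 0.0238 by edgeR), and was 0.0036 in KO2 (SE 0.10, adjusted p 0.985). The fall in WT1 (adjusted p 0.0282) was lost when either of 2 of its 6 libraries was left out, 1 untreated (-0.22, adjusted p 0.0846) and 1 treated (-0.34, 0.122). That in KO1 was lost with any of 3 left out, at -0.17 to -0.28 (adjusted p 0.0590 to 0.0947).

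Ier3 moved in opposite directions. Untreated it was 117, 94.0 and 88.6 in WT1, 24.2, 20.6 and 22.1 in WT2, 29.6, 28.4 and 27.99 in WT3, 34.5, 27.4 and 30.6 in KO1 and 74.1, 70.1 and 56.9 in KO2 (CPM). After IFNG it was 74.5, 63.7 and 80.3 in WT1, 33.2, 29.7 and 29.95 in WT2, 33.5, 24.95 and 28.02 in WT3, 40.5, 51.4 and 63.9 in KO1 and 60.6, 54.9 and 61.6 in KO2 (CPM). The gene fell in WT1, rose in WT2 and KO1, and overlapped between treatments in WT3 and KO2. The log2FC was -0.47 in WT1 (adjusted p 0.00411), 0.49 in WT2 (9.23e-06), 0.029 in WT3 (0.826), 0.78 in KO1 (4.09e-04) and -0.19 in KO2 (0.113), all by edgeR. Of 12834 genes tested in all 5 clones, 57 (0.444%) passed in both directions, and Ier3 was the one member among them. WT1, where it fell, was also where it began highest, and without 1 untreated KO2 library the KO2 value passed (-0.30, adjusted p 0.00309).

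The 2 negative regulators parted company, the kinase phosphatase Dusp1 falling and the mRNA decay protein Zfp36 rising. Dusp1 untreated was 401, 359 and 325 in WT1, 152, 133 and 119 in WT2, 190.0, 151 and 116 in WT3, 212, 169.8 and 153 in KO1 and 249, 245 and 209 in KO2 (CPM). After IFNG it was 146, 113 and 144 in WT1, 81.0, 41.2 and 40.9 in WT2, 67.6, 66.5 and 49.2 in WT3, 71.9, 67.5 and 71.9 in KO1 and 134, 113 and 111 in KO2 (CPM). Every treated library lay below the untreated ones of its clone, and the treated WT2 library that was high for Fos was high for Dusp1 too. The log2FC was -1.44 in WT1 (SE 0.10), -1.29 in WT2 (SE 0.15), -1.31 in WT3 (SE 0.13), -1.31 in KO1 (SE 0.092) and -0.97 in KO2 (SE 0.075), with the largest adjusted p at 7.80e-07 (edgeR). Without that library the WT2 value was -1.70.

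Zfp36 made the largest change of the 10 members in every clone. Untreated libraries held 171, 168 and 136 in WT1, 112, 97.4 and 70.9 in WT2, 155, 123 and 99.6 in WT3, 98.9, 81.2 and 67.2 in KO1 and 244, 209 and 193 in KO2 (CPM). Treated libraries held 618, 497 and 568.1 in WT1, 425, 372 and 377 in WT2, 491, 488 and 441 in WT3, 556, 557 and 626 in KO1 and 789.8, 715 and 657 in KO2 (CPM). The lowest treated library of all clones, at 372 CPM, was above the highest untreated one, at 244 CPM. The log2FC was 1.82 in WT1 (SE 0.095), 2.07 in WT2 (SE 0.092), 1.91 in WT3 (SE 0.10), 2.85 in KO1 (SE 0.11) and 1.74 in KO2 (SE 0.081), that is 3.35- to 7.19-fold, and the largest adjusted p was 2.73e-09 (edgeR). KO1 had the lowest untreated mean, 82.5 CPM, and the steepest rise. Clones differed in this response (adjusted p 0.00140), although among the WT clones alone the adjusted p was 0.807.

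Myc fell in WT1 and in both KO clones. Its untreated levels were 23.3, 24.1 and 22.98 in WT1, 18.7, 18.8 and 15.9 in WT2, 18.6, 19.8 and 17.995 in WT3, 26.6, 26.6 and 23.7 in KO1 and 28.1, 29.2 and 25.1 in KO2 (CPM). With IFNG they were 15.5, 14.9 and 15.1 in WT1, 16.6, 15.4 and 16.1 in WT2, 17.9, 17.4 and 17.1 in WT3, 15.6, 14.8 and 11.7 in KO1 and 22.6, 22.98 and 19.5 in KO2 (CPM). Treated libraries lay below the untreated ones in 4 clones, by a narrow gap in WT3, and the sets overlapped in WT2. The log2FC was -0.64 in WT1 (SE 0.077, adjusted p 2.35e-05), -0.84 in KO1 (SE 0.095, 1.03e-05) and -0.33 in KO2 (SE 0.080, 0.00564), while WT2 gave -0.15 (SE 0.080, 0.180) and WT3 -0.10 (SE 0.070, 0.309), all by edgeR. The clones with the higher untreated levels were those in which Myc fell, and without 1 untreated WT2 library the WT2 value was -0.21 (adjusted p 0.0479).

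Other genes of these pathways, from lists chosen by name, were read against the same background of 21.2% to 36.1% of genes called per clone. Of 12 further AP-1 and small Maf subunits, 10 were tested, and 7 to 9 of them passed in a clone (4 to 6 higher, 2 to 3 lower), with a median log2FC of 0.15 to 0.28. Batf2, an interferon-induced zipper protein, rose by 5.71 to 6.30 and Maff, a small Maf, by 1.601 to 3.10. Jdp2, a repressor that dimerises with Jun, fell in all 5 clones (-1.53 to -0.61). Fosb, a close relative of Fos, fell in 4, and KO1 gave -0.65 (adjusted p of 0.05 or more). Its untreated means were 8.56, 17.1 and 17.8 CPM in WT1, WT2 and WT3. They were low in both KO clones, at 1.91 CPM in KO1 and 1.49 CPM in KO2. Of 15 other immediate early regulators, 11 were tested in every clone, 3 to 4 were higher and 4 to 6 lower in a clone, and the median was -0.24 to 0.12. Egr2, the zinc finger relative of Egr1, rose in all 5 clones (2.29 to 3.20), also in WT1 (2.29), where Egr1 gave 0.22. Csrnp1, a nuclear protein, rose by 2.504 to 3.34, whereas Ets2, an ETS factor (-1.68 to -0.89), and Klf4, a Krüppel-like factor (-0.68 to -0.34), fell.

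**Figure D3:**
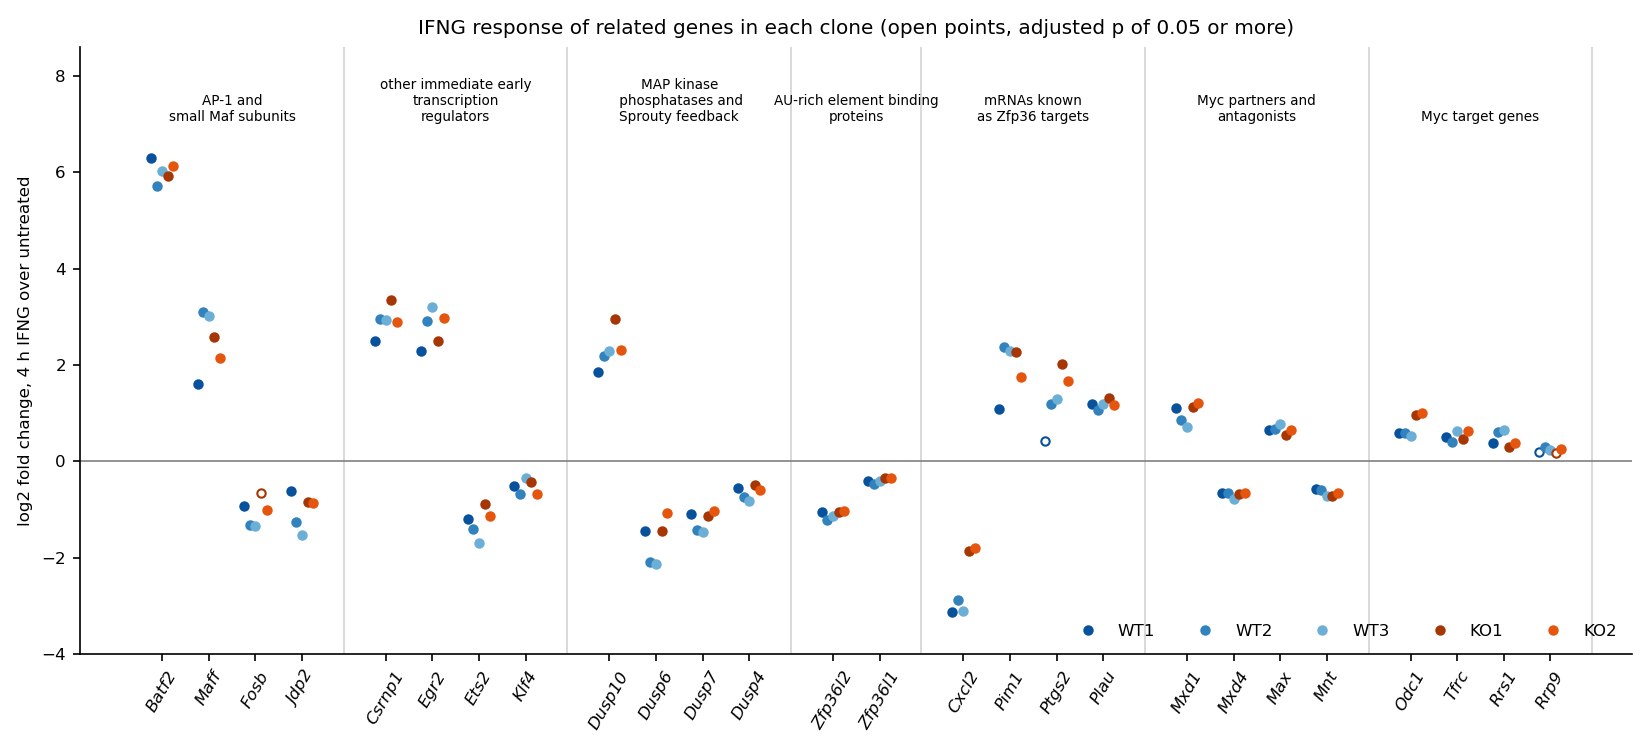
Log2 fold change from untreated to 4 h IFNG of genes related to the members, in each clone, grouped by list, with open points where the adjusted p was 0.05 or more. Batf2, Csrnp1, Egr2 and Dusp10 lie at 1.86 or above in every clone, Cxcl2 lies at -1.80 or below, and the 4 Myc target genes shown lie between 0.16 and 0.99.

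The MAP kinase phosphatases and Sprouty proteins, all 13 tested, changed in both directions: 9 to 11 passed in a clone, 3 to 5 higher and 5 to 8 lower (5 and 5 in KO1), with a median of -0.37 to -0.14. Dusp6 and Dusp7, which act on ERK in the cytoplasm, fell by 1.08 to 2.13 and by 1.02 to 1.47 on the log2 scale, the nuclear phosphatase Dusp4 gave -0.83 to -0.49, and Dusp10, which acts on JNK and p38, rose (1.86 to 2.96). The relatives of Zfp36 went the other way from it. Zfp36l2 was -1.22 to -1.03 and Zfp36l1 -0.46 to -0.34, lower in all 5 clones, and of the other 5 AU-rich element binding proteins at most 1 passed in a clone. Of 10 mRNAs known as Zfp36 targets 7 were tested in every clone, and 3 to 4 were higher and 1 to 3 lower in a clone, with a median of 0.18 to 1.32. The neutrophil chemokine Cxcl2 fell in all 5 clones (-3.13 to -1.80), while the kinase Pim1 (1.08 to 2.37) and the protease Plau (1.07 to 1.32) rose in all 5. Ptgs2, the inducible cyclooxygenase, rose in 4 clones and gave 0.41 in WT1.

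Around Myc, its partner Max rose in all 5 clones (0.55 to 0.77). Of the proteins that compete with Myc for Max, Mxd1 rose (0.71 to 1.22) and Mxd4 (-0.78 to -0.66) and Mnt (-0.73 to -0.58) fell, and 6 to 8 of 9 tested partners and antagonists passed in a clone, with a median of 0.0027 to 0.11. Of 18 genes known as Myc targets, 3 to 8 passed in a clone, 3 to 8 higher and 0 to 1 lower, with a median of -0.012 to 0.093. Odc1, which opens polyamine synthesis, was 0.52 to 0.99, Tfrc, the transferrin receptor, 0.40 to 0.63, and Rrs1, a ribosome assembly factor, 0.30 to 0.64. These 3 of the 18 were higher in all 5 clones. They were named for large and repeated responses, so they do not stand for the list. Of the 18, 3, 8, 8, 5 and 5 passed in WT1, WT2, WT3, KO1 and KO2. The shares of all genes were 21.2%, 34.5%, 36.1%, 29.4% and 27.1% in the same order.

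The clones differed in their starting levels. All 10 members passed the test for any difference among the 5 untreated clones, as did 73.2% of all genes, and all 10 passed it among treated clones (69.3% of all genes), or 9 by DESeq2. The ratio of the highest to the lowest untreated clone mean was 8.79 for Egr1, 4.48 for Ier3, 2.68 for Dusp1, 2.61 for Zfp36, 2.32 for Junb, 2.29 for Atf3, 1.83 for Ier2, 1.62 for Fos, 1.54 for Myc and 1.35 for Jun. After IFNG the Egr1 ratio was 5.12 and that of Ier3 2.53. WT1 had the highest untreated mean for 6 members (Jun, Egr1, Atf3, Dusp1, Ier2 and Ier3) and WT2 the lowest for 7 (Jun, Junb, Egr1, Dusp1, Ier2, Ier3 and Myc).

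Pairs of untreated clones show which neighbours in these orders could be told apart. WT2 was lower than WT1 for 9 of the 10 members beside 25.9% of all genes, and WT3 for 8 beside 25.7%, whereas WT3 and WT2 differed for 2 members beside 9.3%. KO1 was lower than WT1 for 9 members (25.9% of all genes) and higher than WT2 for 7 (23.3%). KO2 was higher than WT2 for 9 (19.5%), higher than WT3 for 8 (19.7%) and higher than KO1 for 6 (13.1%). Other pairs were mixed. Against WT1, KO2 was higher for 2 members (20.3% of all genes) and lower for 5 (21.4%). Against WT3, KO1 was higher for 3 (24.9%) and lower for 3 (26%). The descending order of untreated Egr1 was WT1, KO2, WT3, KO1 and WT2, and the last neighbours, KO1 and WT2, did not pass (adjusted p 0.922, edgeR). For Ier3 the order was WT1, KO2, KO1, WT3 and WT2, and neither KO1 and WT3 nor WT3 and WT2 passed (adjusted p 0.489 and 0.0505). Myc ran KO2, KO1, WT1, WT3, WT2, and KO2 and KO1, KO1 and WT1, and WT3 and WT2 were not separated.

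Fos separated the fewest pairs of untreated clones. It passed in 3 of 10 untreated pairs, all with KO1 as the lower clone (means 49.3 CPM in KO1 and 62.4 to 79.9 CPM elsewhere). With library scaling on genes of chromosome 12 alone, the chromosome of Fos and Dicer1, no untreated pair passed and the test over 5 clones gave an adjusted p of 0.131. After IFNG it passed in 4 pairs, in 7 without the high WT2 library, in 1 or 2 without either of 2 treated KO1 libraries, in 2 with chromosome 12 scaling and in 0 by DESeq2. The test over 5 treated clones was lost for Fos by DESeq2 (adjusted p 0.0748) and with chromosome 12 scaling (0.0681). Beside these levels, 6 integrated stress response genes summed to 203 CPM in untreated WT1, 158 in WT2, 157 in WT3, 180.3 in KO1 and 179 in KO2, and 8 heat shock genes to 2220.1 to 2477 CPM. Such sums follow the most abundant genes of a list, and stress signalling itself was not measured. The part of these genes in the levels of the members was not tested.

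Grouped by genotype, few members separated KO from WT. Over 6 KO and 9 WT untreated libraries 1 member passed, Myc, beside 26.6% of all genes. Untreated Myc was 23.7 to 29.2 CPM (median 26.6) in KO and 15.9 to 24.1 CPM (median 18.8) in WT libraries, a log2FC of 0.40 (SE 0.086, adjusted p 0.00277 by edgeR), and the ranges overlapped slightly. It passed with each clone left out in turn, at 0.32 to 0.53, with libraries still the units. Without KO1 or KO2 a single KO clone remained, so these fits cannot tell genotype from clone. After IFNG the KO and WT libraries overlapped for Myc, with a log2FC of 0.14 (adjusted p 0.416).

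After IFNG 2 members passed, Junb and Zfp36, beside 23.9% of all genes. Treated Junb was 226 to 272 CPM (median 239) in KO and 126 to 214 CPM (median 148) in WT libraries, with no overlap, and the log2FC of 0.60 (SE 0.11, adjusted p 7.23e-04 by edgeR) was called with each clone left out. Treated Zfp36 was 556 to 789.8 CPM (median 642) in KO and 372 to 618 CPM (median 488) in WT libraries (log2FC 0.46, SE 0.11, adjusted p 0.00555), and without KO2 it was 0.30 (adjusted p 0.127). Libraries of a clone are not separate clones, and the fits with a clone left out share this limit. With counts summed to 1 value per clone, 1 gene of all genes and no member passed under either treatment, and Myc gave 0.39 (adjusted p 0.384), Junb 0.61 (0.308) and Zfp36 0.47 (0.413).

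A single WT clone carried weight in these comparisons. Without WT1, 6 members passed in untreated libraries, while the calls over all genes went from 3689 (26.6% of 13886 tested) to 6472. In treated libraries 7 members passed, and calls over all genes went from 3258 (23.9% of 13637 tested) to 5992. The rise in calls was thus not confined to the members, and the share of all tested genes without WT1 was not taken. Untreated Egr1 went from -0.77 with all clones to 0.64 without WT1, neither passing, untreated Ier3 from -0.051 to 0.94 (adjusted p 0.00411 by edgeR) and untreated Dusp1 from -0.075 to 0.52 (0.00501).

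**Figure D4:**
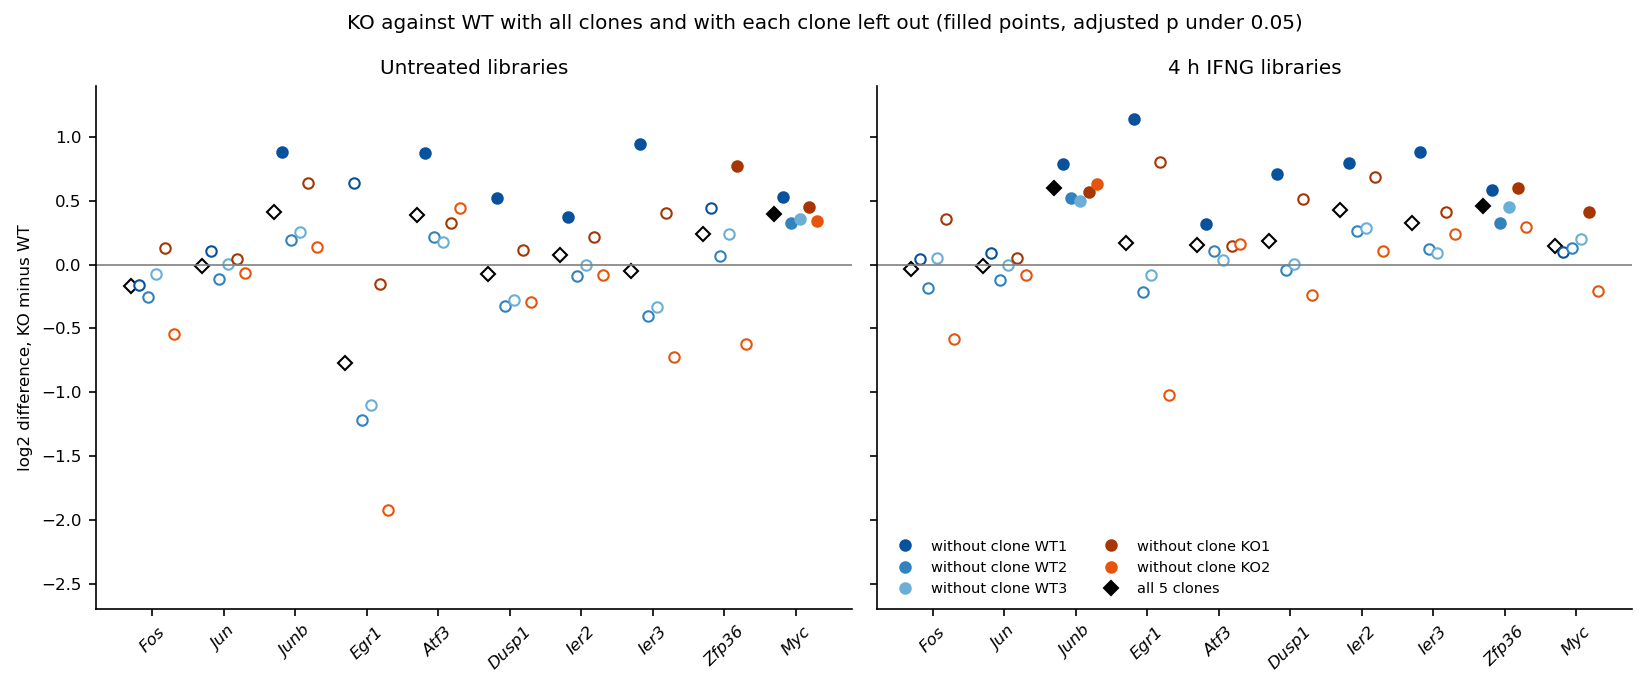
Log2 difference between KO and WT libraries for each member, untreated at left and after IFNG at right, with all 5 clones (diamonds) and with each clone left out (circles), filled where the adjusted p was under 0.05. Junb after IFNG and Myc before it keep a filled point in every setting, and Egr1, Ier3 and Dusp1 cross 0. Libraries are the units in all settings shown, and leaving out KO1 or KO2 leaves a single KO clone.

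The difference of the KO and WT responses was also tested, with a shared response for each genotype and libraries as the units. This test cannot tell the deletion apart from electroporation or from the identity of the clones. It was not run with counts summed per clone. Of the members, Egr1 passed, beside 1.02% of all genes (151 of 14870): it rose by 0.52 in WT and 1.34 in KO clones, a difference of 0.81 (SE 0.21, adjusted p 0.0498 by edgeR). That call lay at the threshold and was lost by DESeq2 (0.68, adjusted p 0.203) and without WT1 (0.51, 0.194), WT2 (0.93, 0.0653), KO1 (0.84, 0.241) or KO2 (0.76, 0.409). For Zfp36 the difference was 0.33 (SE 0.17, adjusted p 0.569), for Myc -0.27 (SE 0.12, 0.415) and for Atf3 -0.32 (SE 0.10, 0.147). Without WT1, Atf3 (-0.56, adjusted p 4.31e-08), Myc (-0.45, 0.0196) and Ier2 (0.41, 0.0425) passed instead, with 564 calls over all genes. Without KO2, Zfp36 (0.89, adjusted p 0.00296) and Myc (-0.56, 0.0249) passed, with 130 calls over all genes.

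Regardless of genotype, the test for any difference in response among the 5 clones was passed by 6 of the 10 members, beside 3.68% of all genes (547 of 14870). The adjusted p-values by edgeR were 9.85e-09 for Atf3, 8.27e-05 for Ier3, 1.45e-04 for Myc, 9.74e-04 for Junb, 0.00140 for Zfp36 and 0.0424 for Egr1. Fos (0.942), Jun (0.997), Dusp1 (0.815) and Ier2 (0.212) did not pass. With no count filter 919 genes and 9 members passed by edgeR, Fos (0.00651), Dusp1 (5.91e-07) and Ier2 (3.13e-07) among them. Fos, Dusp1 and Ier2 passed under no other setting tried, so their calls rest on that choice alone. The Egr1 call was lost on leaving out any of 18 of the 30 libraries and by DESeq2 (0.153).

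Libraries of a group differed from each other for several members together. In each untreated WT group a single library was the highest of 3 for the same 8 members (Fos, Jun, Junb, Egr1, Dusp1, Ier2, Ier3 and Zfp36), and in untreated KO1 for 9 and untreated KO2 for 6 members. In all 5 untreated groups that library was the first of its group's columns in the count table. In treated groups the first column was highest for 8 members in WT2, 9 in WT3 and 5 in KO2. The third column was highest for 5 members in treated WT1 and 7 in treated KO1. The share of all genes with the same order was not counted, so the pattern cannot be called particular to the members. What column position stands for is not given in the sources used here, and its part in these values was not tested. The coefficient of variation was 68.1% for Fos and 42.5% for Dusp1 in treated WT2, against 3.48% for Atf3 in those libraries. Over 30 deviations from the mean of a clone and treatment, Pearson's r was 0.90 between Fos and Dusp1, 0.85 between Junb and Ier2, 0.80 between Junb and Zfp36, and 0.79 between Egr1 and Zfp36. For Atf3, r ran from -0.64 with Myc and -0.42 with Fos through 0.029 with Jun to 0.48 with Ier3. The points of each pair come from the same 30 libraries and share their depth and scaling, and the deviations of 3 libraries sum to 0, so r is given as a description.

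**Figure D5:**
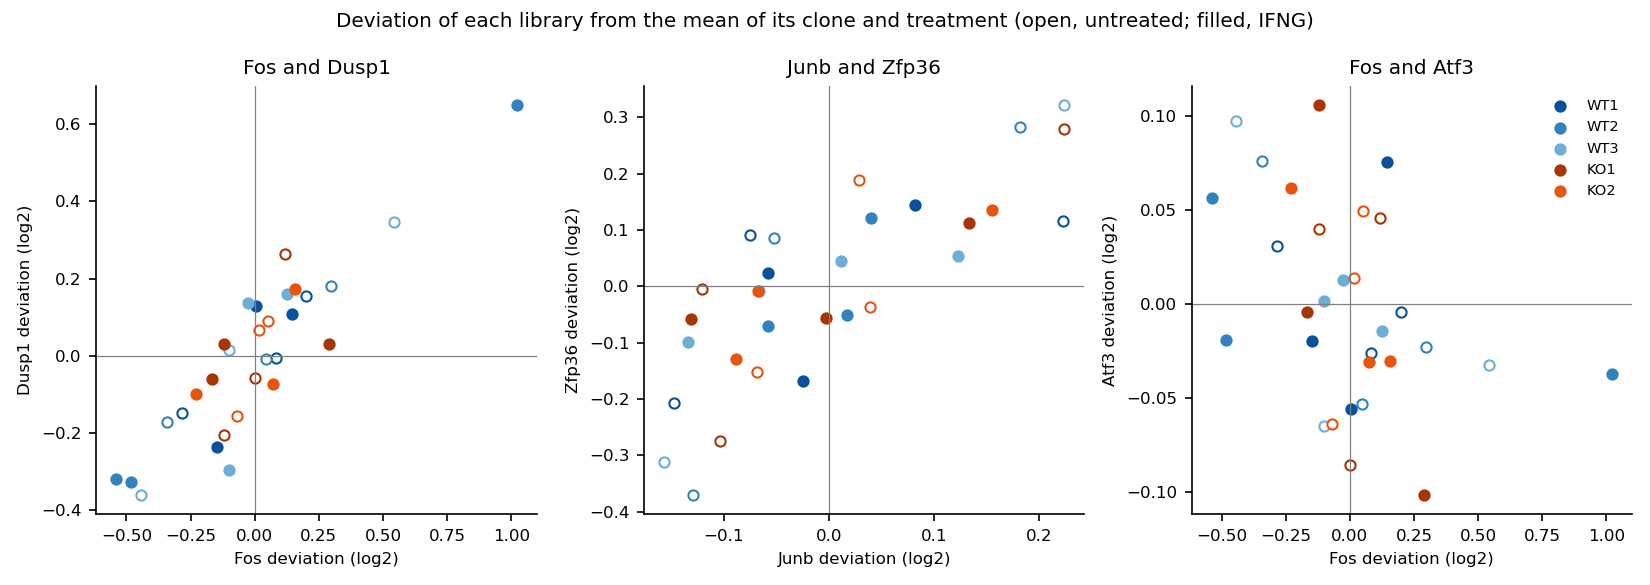
Deviation of each library (log2 CPM) from the mean of its clone and treatment for 3 pairs of members, with open points for untreated and filled points for IFNG libraries. Fos and Dusp1 rise together (r = 0.90), as do Junb and Zfp36 (r = 0.80), with the WT2 library treated with IFNG at the far right of the first panel, and Atf3 runs against Fos (r = -0.42).

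Across all 30 libraries the gene most like a member in log2 CPM, among 10141 genes that averaged 5 CPM or more, was Socs3 for Zfp36 (r = 0.97), Cebpb for Junb (r = 0.97), Shisa5 for Jun (r = 0.97), Slc31a2 for Atf3 (r = 0.98), Rap2a for Dusp1 (r = 0.95), Ppp1r18 for Ier2 (r = 0.93), Ndrg1 for Ier3 (r = 0.94), Efnb1 for Fos (r = 0.85) and Id3 for Myc (r = 0.85). Socs3 is a feedback inhibitor of cytokine signalling, Cebpb a zipper factor of macrophages and Id3 an inhibitor of helix-loop-helix factors. The 30 points of each pair share the 5 clones and 2 treatments.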

How the data were processed

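RNA was sequenced from untreated and IFNG-treated (4 h) J774A.1 clones. As the study's methods state, the authors used BBDuk for trimming and HISAT2 for alignment (mm10), discarded fragments with several placements, merged technical replicates and counted reversely stranded fragments per gene. The submitters' processing notes name HISAT2 2.1.0, SAMtools 1.10, featureCounts 1.6.2, deepTools 3.0.1 and DESeq2 1.26.0, and the header of the deposited table names a Gencode annotation. The values the authors deposited are raw counts per gene and library, not normalized. Totals of 15566122 to 37992642 counts per library set the precision. Library columns name a clone and a treatment but no replicate number, and the columns of WT2 and WT3 carry other clone names that were matched through the deposited tables of those clones. Libraries numbered 1 to 3 are therefore named only, and no pairing was used.

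The count test was edgeR 4.0.16 (R 4.3.3), quasi-likelihood F-tests on TMM-scaled counts after filterByExpr, with Benjamini-Hochberg adjustment over all tested genes and a threshold of 0.05. Each clone's response was fitted on its own 6 libraries. Differences in response, differences among clones and KO against WT were fitted over all clones, 14870 genes for the interaction, with libraries as the units. CPM used TMM factors from those 14870 genes, and FPKM divided CPM by the gene length in the table. Correlations used log2 CPM with a prior of 0.5. The scripts were tested on simulated counts. Alternatives were DESeq2 1.42.0, RLE scaling, no count filter, at least 10 counts in every library, each library or clone left out, WT clones alone, scaling on chromosome 12 genes, a single fit over 30 libraries and counts summed per clone. Leaving out single libraries from the test among clones and from the level tests was added after the data were seen. Members and gene lists were chosen with earlier results of these data known, so they are no independent evidence. Named related genes were up to 4 per list, called in at least 3 clones. Columns of the authors' own comparisons (fold changes and p-values) were not used. Some results are not reported here.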

Additional observations from a re-analysis of the deposited data

Results flagged for a closer look

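Some responses to IFNG differed between groups of libraries by a test of the difference itself (edgeR, Benjamini-Hochberg adjusted over 14870 genes). Among the members, the response of Egr1 was larger in KO than in WT clones by 0.81 on the log2 scale (adjusted p 0.0498), a call lost by DESeq2 (0.68, adjusted p 0.203) and without WT1, WT2, KO1 or KO2 (adjusted p 0.0653 to 0.409). The test for any difference in response among the 5 clones gave an adjusted p of 9.85e-09 for Atf3, 8.27e-05 for Ier3 and 0.000145 for Myc. It gave 0.000974 for Junb, 0.00140 for Zfp36 and 0.0424 for Egr1. The Egr1 call was lost by DESeq2 (0.153) and without any of 18 of the 30 libraries. Of these genes, Ier3 fell in WT1 and rose in WT2 and KO1.

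Among the other named genes, the response of Cxcl2, a chemokine, was less negative in KO than in WT clones by 1.23 (adjusted p 0.000164), and that of Ptgs2, the inducible cyclooxygenase, was larger by 1.12 (adjusted p 0.00313). The KO minus WT difference in response was 0.61 for Dusp6 (adjusted p 0.00572), 0.53 for Dusp10 (0.0167), 0.40 for Ets2 (0.00726) and 0.40 for Odc1 (0.00156). It was 0.85 for Gbp2b (0.000164) and -0.36 for Dicer1 (5.53e-05), the gene that hosts the deleted element. All of these rest on 3 WT and 2 KO clones, and values with a clone left out were not taken for these genes. In WT1, WT2, WT3, KO1 and KO2 the log2FC of Dusp6 was -1.45, -2.08, -2.13, -1.46 and -1.08. For Ets2 it was -1.19, -1.41, -1.68, -0.89 and -1.14, and for Dusp10 1.86, 2.19, 2.28, 2.96 and 2.31. The responses of Dusp6, Ets2 and Dusp10 also differed among the 5 clones (adjusted p 4.33e-08, 9.54e-07 and 3.25e-05 by edgeR).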

How the results depend on the processing

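KO against WT and the difference of responses depended on which clones were kept. With 1 library left out, the number of genes called kept within 1.5 times of the full value for every response, for the test among clones (448 to 626 of 547) and for the level tests, and 5 to 6 members passed the test among clones. Under that choice the WT1 response of Egr1 ran from -0.018 to 0.40, the KO2 response of Ier2 from -0.10 to 0.10 and the WT3 response of Ier3 from -0.11 to 0.12, and Egr1 in the test among clones had an adjusted p of 0.00349 to 0.127. The test among clones called 919 genes and 9 members without a count filter and 330 genes and 4 members with WT clones only. Leaving out libraries from that test and the level tests was chosen after seeing the data. No paired analysis was possible because the count columns carry no replicate number. A replicate block and the removal of all libraries of a replicate number were therefore not run.

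For the difference in response between KO and WT (151 genes, 1 member), no count filter gave 384 genes and 6 members, leaving out WT1 gave 564 and 3, WT2 37 and 0, WT3 82 genes, KO1 21 and 0, and KO2 2 members, while DESeq2 called 0 members. The sign turned for Junb without WT1 (-0.072) or KO1 (-0.14), Jun without WT3 (0.0051) or KO1 (0.0046), Ier3 (-0.14) and Zfp36 (-0.19) without KO1, and Fos without KO2 (-0.042), none of them past the threshold.

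For untreated KO against WT (3689 genes, 1 member), leaving out WT1 gave 6472 genes and 6 members, KO1 1674 and 2, and counts summed per clone 1 and 0. The sign turned without WT1 for Jun (0.10), Egr1 (0.64), Dusp1 (0.52) and Ier3 (0.94), without WT2 for Ier2 (-0.090), and without WT3 for Jun (0.0015) and Ier2 (-0.0037). It turned without KO1 for Fos (0.13), Jun (0.048), Dusp1 (0.11) and Ier3 (0.41), without KO2 for Ier2 (-0.082) and Zfp36 (-0.62), and with no count filter for Jun (0.0026).

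After IFNG (3258 genes, 2 members), leaving out WT1 gave 5992 genes and 7 members, KO1 1411 genes, KO2 1 member and summed counts 1 gene and 0 members. The sign turned without WT1 for Fos (0.048) and Jun (0.088), without WT2 for Egr1 (-0.21) and Dusp1 (-0.044), and without WT3 for Fos (0.050) and Egr1 (-0.079). It turned without KO1 for Fos (0.36) and Jun (0.054), without KO2 for Egr1 (-1.02), Dusp1 (-0.23) and Myc (-0.20), with chromosome 12 scaling for Fos (0.10) and with no count filter for Jun (0.0034). The cause of these changes was not tested. Each member had at least 42 counts in every library.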
